A study of Homo sapiens with 10 samples.

Results

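The genes IL1A, IL1B, IL33, IL1R1, IL1RAP, IL1RL1, IL6, IL11, LIF and IL24 were taken by their exact symbol, 10 of the 57955 genes in the deposited tables. IL1A, IL1B and IL33 code for ligands of the IL-1 family, IL1R1, IL1RAP and IL1RL1 for receptor subunits of that family, and IL6, IL11 and LIF for ligands of the IL-6 family. IL24 belongs to the IL-10 family and was grouped with them by name. All 10 genes had more than 3 counts in at least 1 library, as did 27133 of the 57955 genes, and 7 of the 10 were among the 17288 genes that passed the filter on low counts.

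RNA was sequenced from 5 human BRAF-mutant melanoma cell lines, each as the original drug-sensitive line and as a resistant line (E+BRes) derived from it, with 1 library per line and state. Resistant lines were selected with encorafenib, a BRAF inhibitor, plus binimetinib, a MEK inhibitor, by raising the dose from 1 nM to 200 nM within 3 to 5 months, with 200 nM maintained afterwards, while the original lines grew without the drugs. Both states of a line were compared at the same passage number. WM983A, WM278 and WM902B came from primary tumours and WM983B and WM1617 from metastases. WM983A and WM983B came from the same patient, as did WM278 and WM1617, so the 5 lines represent 3 patients. The lines serve as the replicates, nothing was replicated within a line, and acquired resistance and the presence of the drugs at harvest cannot be told apart.

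IL-1 alpha and IL-1 beta bind IL1R1, which then pairs with IL1RAP and signals through MYD88 and IRAK kinases to NF-kB. IL-33 uses IL1RL1 with the same partner, IL1RAP. Cytokines of the IL-6 family signal through gp130 (IL6ST) to JAK kinases and STAT3, and SOCS3 is a STAT3 target that dampens this signal. Melanoma cells are known to make several of these cytokines themselves, and IL24 was first isolated from differentiating melanoma cells.

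Promoter sequences are shown for IL1A and IL1B, neighbours on chromosome 2 with the widest spread of levels between lines, and for IL6 and IL11, ligands of the same family that moved differently. They cover the bases before the RefSeq transcript start in GRCh38.p14, 5′ to 3′ on the gene's strand, without bases that GENCODE 44 counts as exon. Windows of 250 bases were searched on both strands for TGANTCA (AP-1), TGACGTCA (CRE), TTCNNNGAA (STAT) and the NF-kB consensus, and matches are in capitals. Of 35116 promoter windows, 6.57% held the AP-1 letters, 1.65% the CRE letters, 6.57% the STAT letters and 9.96% the NF-kB consensus. The AP-1 and CRE letters share both ends and differ in the middle, so neither contains the other.
IL1A, chr2:112784494-112784743, minus strand: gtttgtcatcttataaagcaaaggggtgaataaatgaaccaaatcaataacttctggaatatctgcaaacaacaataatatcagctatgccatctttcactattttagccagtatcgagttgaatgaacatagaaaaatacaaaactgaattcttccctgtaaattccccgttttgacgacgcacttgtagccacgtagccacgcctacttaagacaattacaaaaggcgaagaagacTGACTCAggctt
IL1B, chr2:112836817-112837029, minus strand: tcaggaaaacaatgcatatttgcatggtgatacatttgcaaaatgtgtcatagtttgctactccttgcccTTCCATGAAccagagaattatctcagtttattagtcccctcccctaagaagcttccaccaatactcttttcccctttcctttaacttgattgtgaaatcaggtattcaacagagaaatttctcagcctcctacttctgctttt
IL6, chr7:22726950-22727146, plus strand: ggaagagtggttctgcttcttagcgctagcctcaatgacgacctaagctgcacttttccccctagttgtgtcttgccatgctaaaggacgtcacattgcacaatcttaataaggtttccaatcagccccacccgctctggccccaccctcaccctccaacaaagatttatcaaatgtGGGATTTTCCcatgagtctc
IL11, chr19:55370464-55370713, minus strand: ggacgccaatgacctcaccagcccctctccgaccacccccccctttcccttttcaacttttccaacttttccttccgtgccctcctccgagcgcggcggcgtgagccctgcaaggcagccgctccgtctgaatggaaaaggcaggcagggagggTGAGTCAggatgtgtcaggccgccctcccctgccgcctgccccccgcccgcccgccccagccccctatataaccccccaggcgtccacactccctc
IL1A held the AP-1 letters 12 bases before the start of the entry shown, and the window of its second entry, which starts further downstream, held the same site and 1 more, 55 bases before that start. IL11 held them 96 bases before its start. IL1B held the STAT letters 180 bases before its start, and IL6 held the NF-kB consensus 73 bases before its start. Among the other members with an entry, 1 of the 2 IL1RL1 windows held the AP-1 letters and 1 of the 4 IL1R1 windows the STAT letters, and those of IL1RAP, IL33 and IL24 held none. No member window held the CRE letters. A match describes the letters in the window and not a bound site.

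Libraries held between 13693922 and 18033247 counts, so that 3 counts corresponded to 0.171 to 0.226 CPM (counts relative to the TMM-scaled library size). The resistant WM983A library correlated more with sensitive WM902B (r = 0.81 across genes) than with its own sensitive line (r = 0.79), whereas each of the other 4 resistant libraries correlated most with its own line. As these are bulk cultures, fewer cells that express a gene and less RNA per cell cannot be told apart.

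LIF was lower and IL1R1 higher in the resistant library of every line, and IL6 was higher in 4 of 5 lines. These 3 genes were the members that passed an unadjusted p of 0.05 with at least a 2-fold change in edgeR (quasi-likelihood test), 2 of them higher and 1 lower, of the 7 members tested. Among all genes tested 4.41% passed, 3.53% higher and 0.885% lower. No member passed after Benjamini-Hochberg adjustment in edgeR, where the share of all genes called was 0% and 1235 genes had an unadjusted p of at most 0.05. In DESeq2, LIF, IL1R1 and IL6 passed after adjustment (adjusted p = 0.0336, 0.0417 and 0.0195), against 0.613% of all genes. With the cell line as a block in edgeR the same 3 members passed unadjusted, against 5.54% of all genes. Without a block the p-values measure the spread of levels between lines, and with the block the spread of the within-line changes. Some of the lines share a patient.

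**Figure D1:**
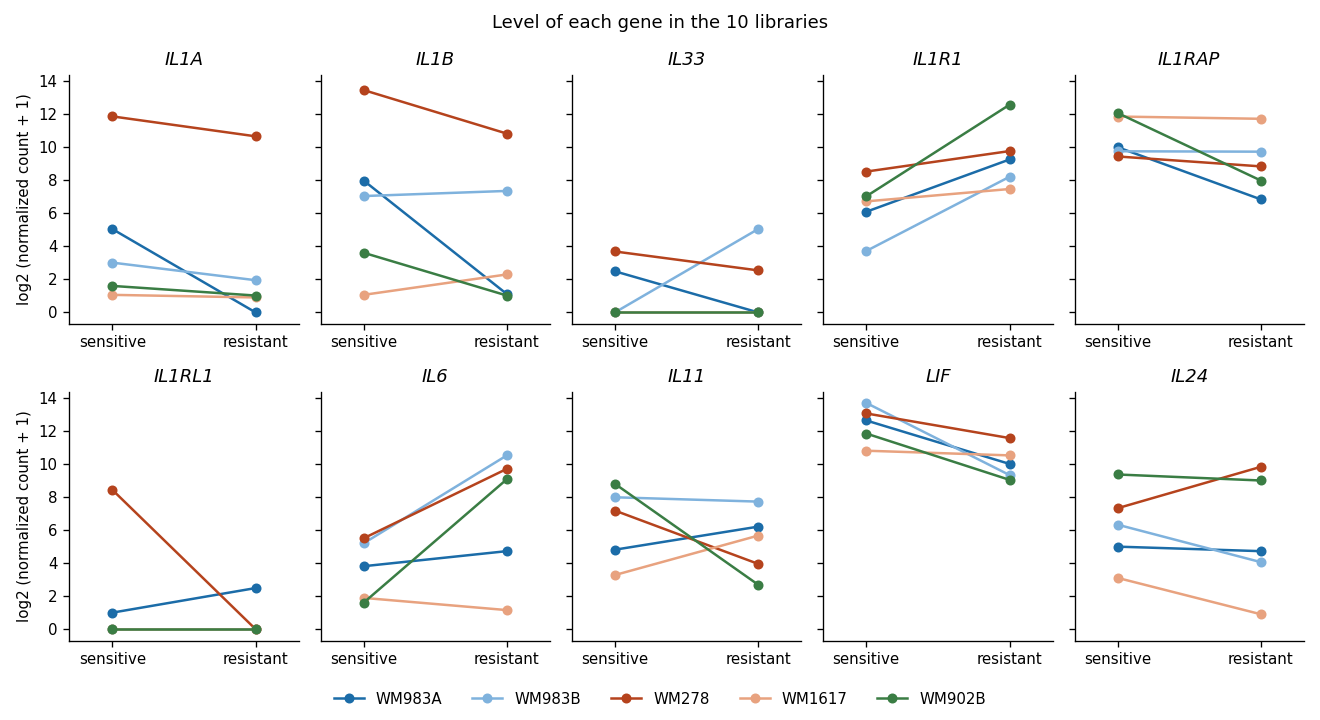
Level of each gene as log2 of the TMM-normalized count plus 1 (y axis) in the sensitive and resistant library (x axis) of each line; a line joins the 2 libraries of a cell line. LIF falls and IL1R1 rises in all 5 lines, while WM278 stands far above the other lines for IL1A and IL1B in both states.

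Among the IL-1 ligands, IL1A and IL1B were carried by WM278 in both states. IL1A (chr2:112773925-112784493, minus strand, GRCh38) stood at 2.09 CPM in sensitive WM983A, 243 in WM278, 0.133 in WM902B, 0.463 in WM983B and 0.0711 in WM1617. In the resistant libraries it was at 0 counts in WM983A, and at 105 CPM in WM278, 0.0672 in WM902B, 0.187 in WM983B and 0.0571 in WM1617. WM278 thus held 98.9% of the IL1A level summed over the sensitive libraries and 99.7% of that over the resistant ones. IL1A was 2.31-fold lower in resistant than in sensitive WM278. In WM983A it was at least 9.25-fold lower, taking 3 counts for the library at 0. WM983B had 7 and 3 counts, a 2.47-fold ratio whose 95% counting interval of 0.565 to 14.8 includes 1. WM1617 and WM902B were at or under 3 counts in both states. Intervals and limits of this kind cover counting error only.

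IL1B (chr2:112829751-112836816, minus strand) stood at 16.5 CPM in sensitive WM983A, 735 in WM278, 0.733 in WM902B, 8.55 in WM983B and 0.0711 in WM1617. The resistant libraries held 0.0755, 118, 0.0672, 10.6 and 0.256 CPM in the same order of lines. WM278 and WM1617, from the same patient, were therefore the highest and the lowest of the sensitive lines. IL1B was 218-fold lower in resistant WM983A (251 against 1 count, 95% counting interval 38.8 to 8650) and 6.22-fold lower in resistant WM278. In WM902B it had 11 counts and 1, a 10.9-fold lower level with an interval of 1.59 to 469. WM983B changed 1.24-fold upwards, and WM1617 had 1 and 4.49 counts with an interval that includes 1 (0.318 to 158). The 3 primary lines thus had lower and the 2 metastatic lines higher values in the resistant state. Over the 5 lines the difference was within the spread between libraries (log2 fold change -2.55, SE 2.28, edgeR unadjusted p = 0.287), and its sign depended on the sensitive WM278 library, without which it was 2.01. Across the 10 libraries IL1A and IL1B had a Pearson's r of 0.92 on log2 levels, given as a description since the libraries share lines. Both WM278 libraries lay far above all others for both genes, so this r depends heavily on 1 line.

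IL33 (chr9:6215786-6257983, plus strand), an alarmin of barrier cells, was near the detection limit. It had 4.59 counts in sensitive WM983A, 12.5 in sensitive WM278, 33.6 in resistant WM983B and 5 in resistant WM278, and 0 in the other 6 libraries. The resistant WM983B level, 2.10 CPM, was the highest of the 10 libraries and at least 10.6-fold above its sensitive line, which was at 0. IL33 was too low for the edgeR fit and the groups overlapped (exact permutation p = 0.841).

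**Figure D2:**
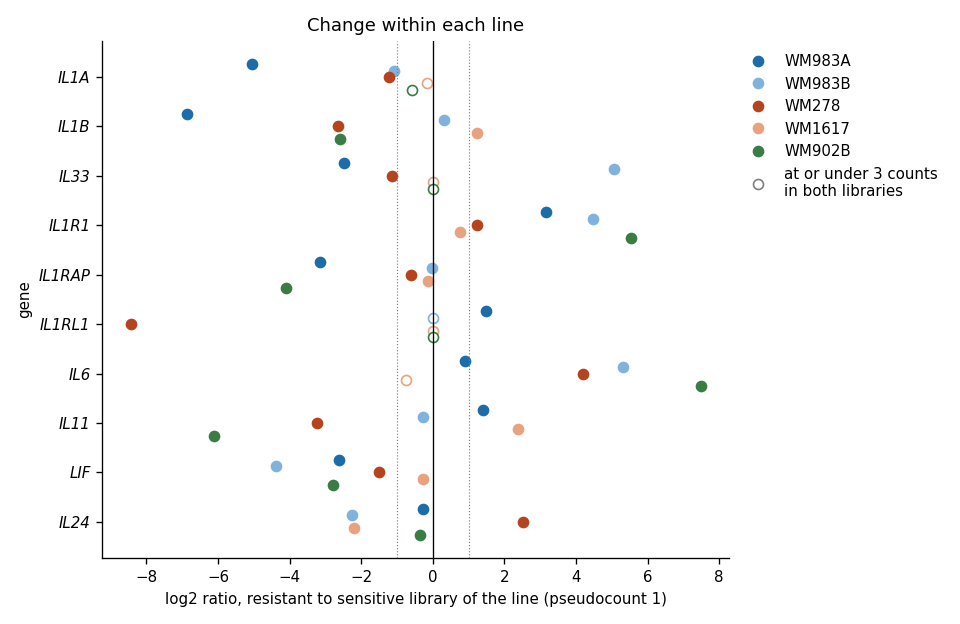
Resistant over sensitive log2 ratio (x axis) for each gene (y axis) in each line, with 1 added to the normalized count; dotted lines mark a 2-fold change and open points have at most 3 counts in both libraries. IL1R1 lies between 0.75 and 5.54 and LIF between -4.37 and -0.28, whereas IL11 and IL24 fall on both sides of 0.

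Among the receptors, IL1R1 and IL1RAP are the 2 subunits of the IL-1 receptor complex. IL1R1 was higher in the resistant library of every line, while IL1RAP was at least 2-fold lower only in WM983A and WM902B. IL1R1 (chr2:102064544-102179874, plus strand), the ligand-binding subunit, stood at 4.39 CPM in sensitive WM983A, 24.0 in WM278, 8.44 in WM902B, 0.793 in WM983B and 6.82 in WM1617. The resistant libraries held 39.9 CPM in WM983A, 56.8 in WM278, 397 in WM902B, 19.2 in WM983B and 11.5 in WM1617. The groups overlapped between lines, as sensitive WM278 lay above resistant WM983B and WM1617, but within each line the resistant library was higher. The ratio was 9.08-fold in WM983A, 24.3-fold in WM983B, 2.37-fold in WM278, 47.0-fold in WM902B and 1.69-fold in WM1617. The log2 fold change was 3.56 (SE 1.13, edgeR unadjusted p = 0.00973, adjusted p = 0.630) and the exact permutation test gave p = 0.0238, not adjusted for the 10 genes. Without WM902B the log2 fold change was 1.83 and no longer passed on p (unadjusted p = 0.0814). Without the resistant WM983A library it was 3.77 and passed (unadjusted p = 0.0110).

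IL1RAP (chr3:190514051-190659750, plus strand), the signalling partner shared by the IL-1 and IL-33 receptors, was expressed in all 10 libraries. Its sensitive levels were 67.0 CPM in WM983A, 45.3 in WM278, 281 in WM902B, 56.3 in WM983B and 242 in WM1617. The resistant levels were 7.43 CPM in WM983A, 29.8 in WM278, 16.5 in WM902B, 55.4 in WM983B and 220.0 in WM1617. WM902B and WM983A carried the difference, WM902B by a 17.1-fold and WM983A by a 9.02-fold lower level, and WM278 was 1.52-fold lower. WM983B and WM1617 differed by 1.02-fold and 1.10-fold. Over the 5 lines it did not pass (log2 fold change -1.07, SE 0.89, edgeR unadjusted p = 0.255, exact permutation p = 0.127). It passed in the 3 primary lines alone (-2.88, unadjusted p = 0.0159), without line WM1617 (-2.04, unadjusted p = 0.0288) and without its resistant library (-2.35, unadjusted p = 0.0127).

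IL1RL1 (chr2:102311502-102352037, plus strand), the IL-33 receptor also known as ST2, was in practice a gene of 1 library. Sensitive WM278 had 363 counts or 22.6 CPM, and resistant WM278 had 0 counts, a level at least 119-fold lower. Sensitive WM983A had 1 count, resistant WM983A 4 counts, and the other 6 libraries 0. The exact permutation test gave p = 0.722, and without a filter on low counts edgeR gave a log2 fold change of -6.20 (unadjusted p = 0.0212), which rests on this 1 library. Sensitive WM278 was also the highest library for IL18R1, a neighbouring receptor gene, at 35.7 CPM, and 95 bases or 1.65% of the IL1RL1 exons overlap exons of IL18R1 on the same strand, so reads there cannot be assigned to either gene.

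In the IL-6 family, IL6 was higher and LIF lower in most resistant lines, and IL11 differed in direction between lines. IL6 (chr7:22725884-22732002, plus strand) was low in all sensitive libraries, with 0.852 CPM in WM983A, 2.90 in WM278, 0.133 in WM902B, 2.33 in WM983B and 0.178 in WM1617. In the resistant libraries it stood at 1.66 CPM in WM983A, 54.5 in WM278, 35.3 in WM902B, 96.1 in WM983B and 0.0804 in WM1617. Resistant WM983B, WM278 and WM902B thus lay above every sensitive library, and the other two resistant libraries lay within the sensitive range or below it. The ratio was 41.2-fold in WM983B and 18.8-fold in WM278. In WM902B it was 265-fold, from 2 to 525 counts, with a 95% counting interval of 72.9 to 2190. WM983A changed 1.95-fold, and WM1617 had at most 3 counts in both states. The log2 fold change was 4.87 (SE 1.53, edgeR unadjusted p = 0.00926, adjusted p = 0.630). It passed in all of the 15 fits that left out 1 line or 1 library, including that without resistant WM983A (5.17, unadjusted p = 0.00616). It did not pass in limma without a block (3.41, unadjusted p = 0.0848) or in the exact permutation test (p = 0.127). The pairing of libraries by line was not used in these, nor in the edgeR fits in which IL6 passed here. In limma with the line as a block IL6 passed (3.41, unadjusted p = 0.0274). Of the IL6 exons 9.91% overlap the antisense gene IL6-AS1, which had at most 22.9 counts in any library, and 1.06% overlap STEAP1B on the opposite strand. The counting was not stated to use strand.

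LIF (chr22:30240453-30246759, minus strand), which signals through LIFR and gp130, was the most abundant member per kilobase of exon by its median in both states. Its sensitive levels were 415 CPM in WM983A, 558 in WM278, 240.0 in WM902B, 867 in WM983B and 117 in WM1617. The resistant levels were 67.0 CPM in WM983A, 198 in WM278, 34.3 in WM902B, 42.0 in WM983B and 95.9 in WM1617. All resistant libraries except that of WM278 lay below every sensitive library. LIF was 6.20-fold lower in WM983A, 20.6-fold in WM983B, 2.81-fold in WM278, 6.99-fold in WM902B and 1.22-fold in WM1617. The log2 fold change was -2.32 (SE 0.62, edgeR unadjusted p = 0.00359, adjusted p = 0.630). It passed in all 15 fits with 1 line or library left out, where it ranged from -2.87 to -1.74, and was -2.25 without resistant WM983A (unadjusted p = 0.0105). The exact permutation test gave p = 0.0159, where 0.00794 is the smallest p that 5 against 5 libraries allow. LIF-AS1 and LIF-AS2, on the opposite strand, overlap 2.22% and 2.14% of its exons and had at most 6.50 and 166 counts.

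IL11 (chr19:55364382-55370463, minus strand), a gp130 cytokine with its own receptor IL11RA, stood at 1.77 CPM in sensitive WM983A, 9.41 in WM278, 29.0 in WM902B, 16.5 in WM983B and 0.569 in WM1617. The resistant libraries held 4.77, 0.946, 0.357, 13.7 and 3.25 CPM in the same order. It was 81.5-fold lower in resistant WM902B and 9.94-fold lower in WM278, but 5.72-fold higher in WM1617 and 2.69-fold higher in WM983A. WM983B differed by 1.20-fold. The difference over the 5 lines was within the spread (log2 fold change -1.30, SE 1.09, edgeR unadjusted p = 0.257, exact permutation p = 0.397). IL6 and IL11 moved oppositely in WM902B and WM278, where IL6 was 265-fold and 18.8-fold higher.

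IL24 (chr1:206897443-206904139, plus strand) stood at 2.02 CPM in sensitive WM983A, 10.4 in WM278, 43.0 in WM902B, 5.19 in WM983B and 0.498 in WM1617. The resistant libraries held 1.66, 59.3, 33.4, 1.02 and 0.0571 CPM in the same order. It was 5.71-fold higher in resistant WM278 and 5.06-fold lower in WM983B, and in WM1617 it had 7 counts and 1 (8.72-fold lower, interval 1.12 to 393). WM902B was 1.29-fold and WM983A 1.22-fold lower. The log2 fold change was 0.65 (SE 1.48, edgeR unadjusted p = 0.667), and it was -0.46 with the line as a block and -0.48 without WM278. Exons of FCMR, on the opposite strand and with at most 353 counts, overlap 41.6% of the IL24 exons, so the IL24 counts are uncertain.

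**Figure D3:**
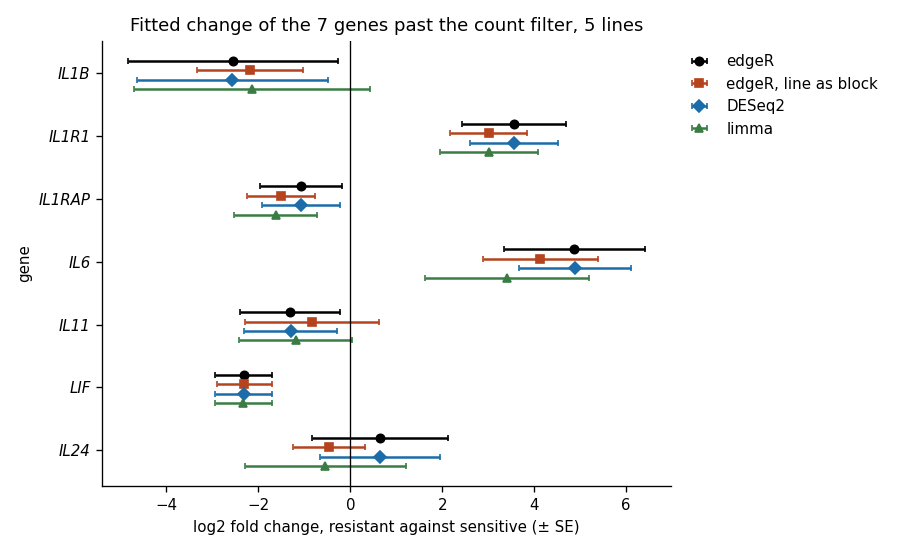
Log2 fold change of resistant against sensitive libraries (x axis, with SE as bars) for the 7 genes past the filter on low counts (y axis), in 4 fits of the 5 lines. IL1R1 and IL6 lie above and LIF below 0 in all 4 fits, and IL24 changes sign between them.

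Per kilobase of exon, the order of the members changed between the states. In the sensitive libraries the medians were 107 CPM per kb for LIF, 5.98 for IL1RAP, 3.51 for IL11, 2.84 for IL1B, 2.62 for IL24, 0.958 for IL1R1, 0.229 for IL1A and 0.197 for IL6, and 0 for IL1RL1 and IL33. In the resistant libraries they were 17.3 for LIF, 8.17 for IL6, 5.60 for IL1R1, 2.66 for IL1RAP, 1.22 for IL11, 0.840 for IL24, 0.0851 for IL1B and 0.0333 for IL1A, and again 0 for the other two. IL6 thus stood eighth in the sensitive and second in the resistant libraries. The sensitive LIF range, 30.1 to 224, lay above that of IL1RAP, 4.04 to 25.1, while the ranges of all other neighbours in either order overlapped.

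The number of members that differed at least 2-fold, by the ratio with 1 added to the normalized counts, varied between lines, and so did that of all genes. In WM983A, 3 of 10 members over 3 counts were higher (IL1R1, IL11 and IL1RL1) and 5 lower (IL1A, IL1B, IL33, IL1RAP and LIF), where 22.8% of all genes over 3 counts were higher and 21.5% lower. IL33 is counted there by its ratio with 1 added, and taking 3 counts for the library at 0 it was at least 1.33-fold lower, which is under 2-fold. In WM983B, 3 of 9 were higher (IL1R1, IL6 and IL33) and 3 lower (IL1A, LIF and IL24), against 23.3% and 12.1% of genes. In WM278, 3 of 10 were higher (IL1R1, IL6 and IL24) and 6 lower (IL1A, IL1B, IL33, IL1RL1, IL11 and LIF), against 18.1% and 9.24%. In WM1617, 2 of 6 were higher (IL1B and IL11) and 1 lower (IL24), against 5.15% and 7.33%. In WM902B, 2 of 7 were higher (IL1R1 and IL6) and 4 lower (IL1B, IL1RAP, IL11 and LIF), against 21.7% and 13.6%. Resistant WM1617 had the smallest ratios of IL1R1 and LIF and the smallest share of all genes at 2-fold or more. The ratios in WM983A for IL33 and IL1RL1 and in WM1617 for IL1B rest on 5 counts or fewer in both libraries.

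The other genes of the pathways were read from the same fit, with 64 of 93 listed genes tested. Of these, 7 were called at an unadjusted p of 0.05 and 2-fold in edgeR, none after adjustment. Among all genes tested 4.41% were called, 3.53% higher and 0.885% lower. The signalling genes downstream of gp130 included 1 call of 10 tested, SOCS3, the feedback inhibitor, and 9 of 10 had a positive log2 fold change, with a median of 0.55 against 0.03 for all genes. SOCS3 stood at 25.4 CPM in sensitive WM983A, 62.2 in WM278, 40.3 in WM902B, 17.8 in WM983B and 22.4 in WM1617, and at 108, 130.0, 230.0, 48.3 and 52.8 CPM in the resistant libraries. It was higher in the resistant library of all 5 lines, WM1617 included, with a log2 fold change of 1.77 (SE 0.50, edgeR unadjusted p = 0.00494), and of 1.67 with the line as a block (unadjusted p = 0.000422). It passed in all 15 fits with a line or library left out. STAT3 (0.85, unadjusted p = 0.0137) and JAK1 (0.52, unadjusted p = 0.0465) passed the p threshold but not 2-fold.

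Of the IL-6 family receptors, 1 of 6 tested was called. IL11RA, the IL-11 receptor, rose from 1.95 to 6.11 CPM in WM983A, from 2.28 to 12.5 in WM983B, from 5.79 to 14.1 in WM278 and from 2.93 to 15.5 in WM902B, and was at 2.93 and 1.34 CPM in WM1617. Its log2 fold change was 1.65 (SE 0.59, edgeR unadjusted p = 0.0188), and it lost the call without WM983B (1.45, unadjusted p = 0.0791) or WM902B (1.41, unadjusted p = 0.0806). IL6ST, the shared gp130 subunit, ranged from 151 to 360 CPM in the sensitive and from 196 to 825 CPM in the resistant libraries and did not pass (0.65, unadjusted p = 0.149). None of the 3 other IL-6 family ligands tested passed, the most abundant being CLCF1 (0.66, unadjusted p = 0.505).

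Of the IL-1 family, none of the 4 other receptors tested passed, and the most abundant was SIGIRR, a negative regulator (0.72, unadjusted p = 0.0724). The only other ligand or antagonist tested was IL18BP, the decoy for IL-18, at 0.88 (unadjusted p = 0.0353), which is less than 2-fold. IL1RN, the IL-1 receptor antagonist, had 0 counts in all 10 libraries. Among 11 signalling adaptors none passed, and the most abundant, the kinase IRAK1, was at -0.01 (unadjusted p = 0.990). None of the 3 IL-10 family genes tested passed, with IL10RB at 0.00 (unadjusted p = 0.992).

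Of 13 NF-kB target genes tested, 1 was higher and 1 lower, with a median log2 fold change of 0.02. CCL20, a chemokine, was at 4.38, 29.3, 4.95, 2.79 and 1.52 CPM in the sensitive and at 0.0755, 2.26, 0.394, 0.498 and 2.67 CPM in the resistant libraries of WM983A, WM278, WM902B, WM983B and WM1617, lower in every line but WM1617. Its log2 fold change was -2.84 (SE 1.04, edgeR unadjusted p = 0.0198), and it lost the call without WM278 (-1.86, unadjusted p = 0.0676), sensitive WM278 (-1.51, unadjusted p = 0.102) or WM902B (-2.76, unadjusted p = 0.0527). SOD2, the mitochondrial superoxide dismutase, had a log2 fold change of 2.11 (SE 0.79, edgeR unadjusted p = 0.0221) with resistant WM278 at 1470 CPM against 83.6 to 168 in the other resistant libraries, and stood at 0.46 without that library (unadjusted p = 0.106), at 0.62 without line WM278 (unadjusted p = 0.0347), under 2-fold, and at 1.08 with the line as a block (unadjusted p = 0.0780).

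ERK pathway output genes had a median log2 fold change of -1.05, and 11 of 13 were negative, with 2 called lower and 1 higher. DUSP4, an ERK phosphatase (-1.24, edgeR unadjusted p = 0.0325), and SPRED1, a RAS inhibitor (-1.16, edgeR unadjusted p = 0.0296), were lower, and EGR1, an immediate early gene (1.56, edgeR unadjusted p = 0.0272), was higher. Each lost its call in some of the 15 fits with a line or library left out, DUSP4 passing in 6, SPRED1 in 7 and EGR1 in 8, and EGR1 also with the line as a block (1.02, unadjusted p = 0.104). With that block 6 were called lower and none higher, where 354 of all 17288 genes tested were called lower and 603 higher. With it 12 of 13 were negative, with a median of -1.22. Those lower in the block were DUSP4 (-1.53, edgeR unadjusted p = 0.00207), SPRED1 (-1.22, edgeR unadjusted p = 0.0322), DUSP6, also an ERK phosphatase (-2.15, edgeR unadjusted p = 0.0128), the transcription factors ETV4 (-2.60, edgeR unadjusted p = 0.00891) and ETV5 (-1.52, edgeR unadjusted p = 0.0150), and SPRY2, a feedback inhibitor (-1.41, edgeR unadjusted p = 0.0440).

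**Figure D4:**
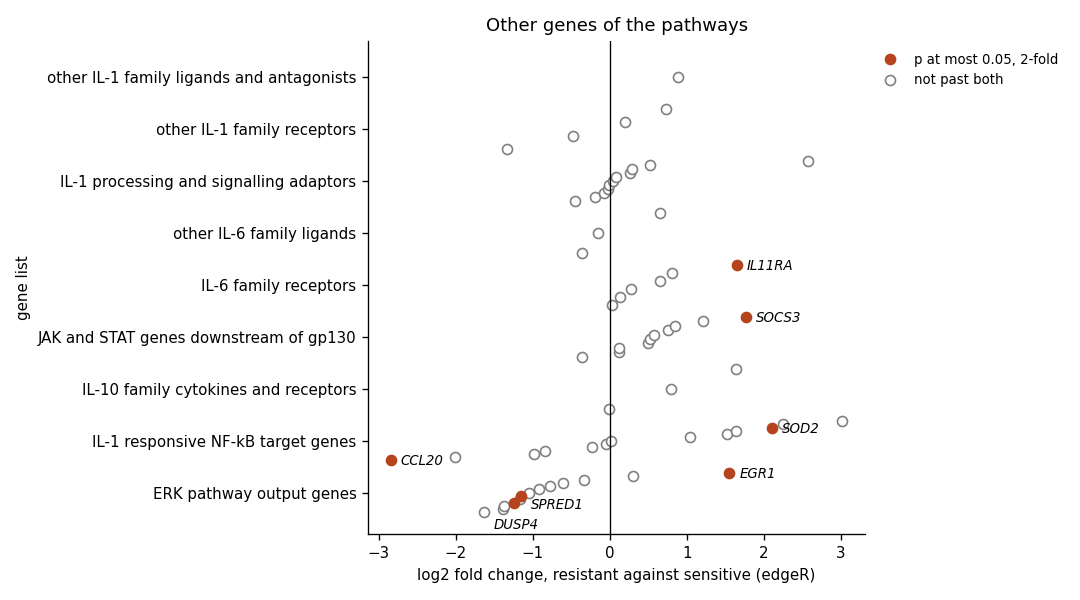
Log2 fold change of resistant against sensitive libraries in edgeR (x axis) for the tested genes of 9 pathway lists (y axis), with filled points where the unadjusted p was 0.05 or less with a 2-fold change. The 7 filled points are IL11RA, SOCS3, SOD2 and EGR1 to the right and CCL20, DUSP4 and SPRED1 to the left.

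Markers of melanocytes and fibroblasts differed between the states of some lines. The summed level of 8 melanocyte lineage markers was 3500 CPM in sensitive and 88.2 in resistant WM983A, 2030 and 139 in WM983B and 2900 and 231 in WM902B, the 3 lines with the largest ratios of IL1R1 and LIF. It was 4480 and 4410 CPM in WM1617, where those ratios were smallest, and 426 and 915 in WM278. The IL6 ratios were ordered differently, at 265-fold in WM902B and 41.2-fold in WM983B, but 18.8-fold in WM278 and 1.95-fold in WM983A. WM1617 had at most 3 counts of IL6 in both states. In WM278 S100B was at 92.1 CPM in the sensitive and 619 in the resistant library, and SOX10 at 316 and 271. The other markers of the list were at most 14.3 CPM in WM278. Of the 8, TYRP1, a pigment enzyme, was called lower (-5.21, edgeR unadjusted p = 0.0158) but not with the line as a block (-1.71, unadjusted p = 0.452). With that block TYR was called lower instead (-3.92, edgeR unadjusted p = 0.0292). All 8 had a negative log2 fold change in both fits, with a median of -1.19 without and -3.34 with the block.

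The summed level of 8 fibroblast markers was 13.5 to 89.0 CPM in the sensitive libraries. In the resistant ones it was 9.18 in WM983A, 170.0 in WM278, 1670 in WM902B, 297 in WM983B and 22.2 in WM1617. COL1A1 (log2 fold change 6.11, edgeR unadjusted p = 0.00558) and PDGFRB (4.55, edgeR unadjusted p = 0.0178) passed among the 6 tested, while COL1A2 was at most 0.810 CPM in every library. With the line as a block COL1A1 passed (4.34, edgeR unadjusted p = 0.0126) and PDGFRB did not (2.89, unadjusted p = 0.0568). In edgeR 5 of the 6 were positive, both without the block (median log2 fold change 2.27) and with it (0.75). In limma without a block 3 were positive and 3 negative (0.46). Most of the sum in resistant WM902B came from COL1A1 at 1230, PDGFRB at 300.0 and PDGFRA at 104 CPM, whereas in the sensitive and resistant library of that line LUM was at 27.5 and 28.3 and THY1 at 0.133 and 0.226 CPM, and FAP was slightly lower in the resistant one. In WM983A the fibroblast sum was 89.0 CPM in the sensitive and 9.18 in the resistant library while IL1R1 was 9.08-fold higher. Leukocyte markers summed to 8.62 to 79.6 CPM in the sensitive and 4.90 to 69.6 CPM in the resistant libraries. Most of the sum was CD68 in every library, with PTPRC at most 0.355 CPM and CD3E at or under 3 counts throughout. In WM278, the line with the highest IL1B, leukocyte markers were at 8.62 and 4.90 CPM. Endothelial markers reached 53.2 CPM in sensitive WM278, nearly all of it KDR at 52.9 CPM, with CDH5 at or under 3 counts throughout, and were at most 5.17 CPM in the other libraries. Keratinocyte markers summed to 20.8 to 57.6 CPM in the sensitive and 24.4 to 85.5 CPM in the resistant libraries, most of it KRT10 in every library except resistant WM983B (KRT10 at 16.7 and TP63 at 19.2 CPM), with KRT1 and DSG3 at or under 3 counts throughout. What part these markers had in the results on the cytokine genes was not tested.

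**Figure D5:**
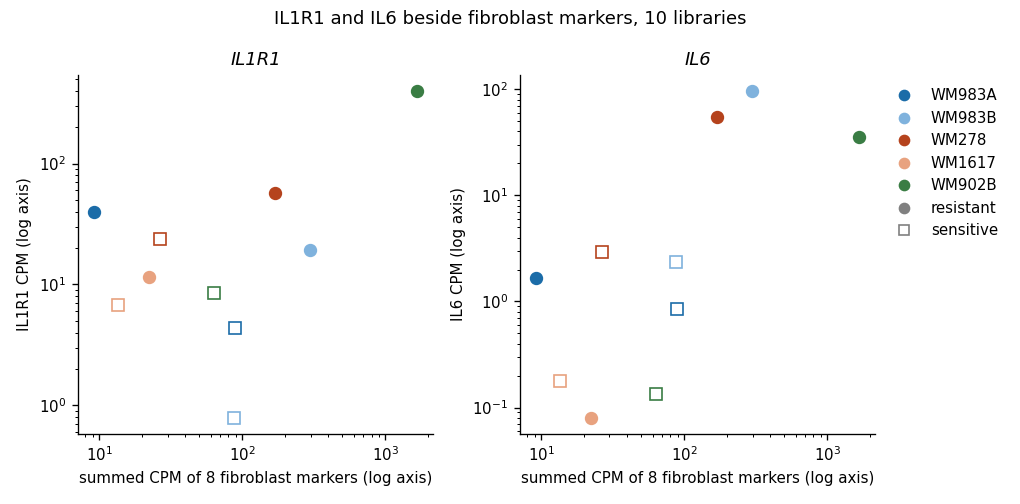
CPM of IL1R1 and of IL6 (y axes, log scale) against the summed CPM of 8 fibroblast markers (x axes, log scale) in the 10 libraries, with squares for sensitive and circles for resistant. Resistant WM902B lies highest on both axes for IL1R1, and resistant WM983A, at 9.18 CPM of fibroblast markers, lies lowest on the x axis.

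The genes with levels most like each member over the 10 libraries are given as a description, since the libraries share lines. For IL1R1 they were SOCS3 (Pearson's r = 0.96 on log2 CPM), PDLIM1 (0.95) and KIAA1217 (0.94). For LIF they were RP11-261C10.5 (0.98), CD83 (0.96) and LARP4 (0.96), and for IL6 LIMS2 (0.98), BDNF-AS (0.98) and IFI27 (0.97). IL1RAP was most like USP6NL (0.96), IGF2BP2 (0.96) and ENPP1 (0.95), and IL1B like SERPINB10 (0.99), ZNF641 (0.98) and ABCA6 (0.98). For IL1B both WM278 libraries lay far above all others. IL11 was most like PMAIP1 (0.88), MIER2 (0.85) and RP11-77H9.5 (0.85), and IL24 like CC2D2A (0.94), VAC14 (0.92) and EPHA5 (0.89).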

How the data were processed

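Poly(A) RNA of 10 melanoma cultures was sequenced by the authors in single-end runs of 75 cycles and aligned to GRCh38 with HISAT2, and expression was quantified in StrandNGS with DESeq normalization. Annotation, strand use and the treatment of multiply mapped reads are not given in the sources used here. The deposited values are expected counts per gene, which need not be whole, and a normalized column, which per the file headers and its values holds the log2 ratio to the sensitive library of the same line (0 in sensitive libraries). This log2 column was used to recover 455 counts that one deposited table, of sensitive WM983B, holds as dates. All 455 matched the visible digits within 0.01, and none belongs to a member.

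Counts were rounded and tested with edgeR 4.0.16 (filterByExpr, TMM, quasi-likelihood test, two-sided) over 17288 genes in 5 sensitive and 5 resistant libraries, with Benjamini-Hochberg adjustment. A gene was called at p of at most 0.05 and 2-fold. Alternatives were DESeq2 1.42.0, limma 3.58.1 on log2 values, the cell line as a replicate block, other filters and normalizations, the primary lines alone and the removal of each line or library. Within-line ratios add 1 to normalized counts. Shares per line cover genes over 3 counts in either library of the line. For single members, the exact permutation test used all 252 regroupings of the libraries. The fitting steps were tested on simulated data. The lines pair the samples, since both libraries come from one cell line, although deviations from the group means correlated at -0.06 in WM983A (0.38 to 0.68 in the others). Positions and exon lengths are from GENCODE 44, whose build matches, and 9 of 10 members matched RefSeq promoters (not LIF).

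The members and gene lists were chosen with earlier results of these data known. Named are all members, each listed pathway gene that was called, the most abundant gene of a list with no call, and the 3 genes most correlated with each tested member. STAT3, JAK1, IL6ST, IL1RN, DUSP6, ETV4, ETV5, SPRY2 and the uncalled markers were named after their values were seen. Depth, 13693922 to 18033247 counts per library, limits precision for genes near 3 counts.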

Additional observations from a re-analysis of the deposited data

Results flagged for a closer look

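For each gene a value apart from the other 4 was looked for by Dixon's ratio of gap to range, with a critical value of 0.71, in 30 groups. The groups were the sensitive levels and the resistant levels, both as log2 of the normalized count plus 1, and the within-line log2 ratios. Chance gives about 1 such value in 20 groups. IL1A in resistant WM278 lay above the other resistant libraries (ratio 0.817), and the IL1A log2 ratio in WM983A, -5.05, lay below those of the other lines (0.785). IL1RL1 stood apart in sensitive WM278, which was highest (0.881), and in resistant WM983A, the only resistant library with counts, where the ratio is 1.00 for any value above 0 because the other 4 are at 0, and the value is 4 counts. The IL1RL1 log2 ratio in WM278, -8.44, was lowest (0.850). As resistant WM278 had 0 counts, this flag repeats that of the sensitive level. The ratio was 0 in WM983B, WM1617 and WM902B, which had 0 counts in both states.

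The IL1B log2 ratio was negative in all 3 primary lines (mean -4.03) and positive in both metastatic lines (mean 0.77), a difference of -4.81. This difference between the groups was not tested, and the WM1617 value rests on 1 and 4.49 counts.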

How the results depend on the processing

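The number of members called unadjusted was 2 to 4 under every alternative, against 3 as reported. DESeq2 called 3 members after adjustment where edgeR called 0. The pathway genes called, 7 as reported, were 11 with no filter on low counts, 11 in DESeq2, 11 with the line as a replicate block, 12 with that block in limma and 11 in the primary lines alone, and 3 to 16 with a line or library left out, lowest without WM902B and highest without WM1617 or its resistant library. The share of all genes called moved the same way, from 4.41% to 2.41% without WM902B, 8.57% without WM1617 and 8.86% without its resistant library. That share was 5.9% with no filter on low counts, 5.2% in DESeq2 and 5.54% with the line as a replicate block. It was 6.18% with that block in limma and 5.81% in the primary lines alone. The members past 0.05 in the exact permutation test, 2 as reported, numbered 0 to 2 with a line left out, where 4 against 4 libraries allow no p under 0.0286. The IL1B log2 fold change turned to 2.01 without sensitive WM278 and ranged from -5.79 to 2.01 with a line or library left out. That of IL24 turned to -0.54 in limma, -0.46 with the line as a replicate block, -0.54 with that block in limma, -0.48 without WM278 and -0.43 without its resistant library, with a range of -0.48 to 2.08 over the removals. The causes were not tested. In edgeR the replicate block changed no call of a member, and among pathway genes named it ended those of SOD2 and EGR1. Among markers it ended those of TYRP1 and PDGFRB and added those of TYR and LYZ, both lower. In limma IL6 was called with the block (3.41, unadjusted p = 0.0274) and not without it (unadjusted p = 0.0848). Within-line ratios kept their direction where at least 2-fold, and IL1A in WM983A moved from -5.05 to -2.89 with a pseudocount of 5. Among fitted changes of single genes under the alternatives, 279 kept direction and side of the threshold, 41 lost and 3 gained the call and 6 reversed. Leaving out the genes recovered from dates, an alternative chosen after the data were seen, gave 3 members and 7 pathway genes. Depth limits IL1A, IL1B, IL33, IL1RL1, IL6 and IL24 in lines where a library had 3 counts or fewer.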

Other observations

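Chemokine genes among the NF-kB targets that were not called differed in direction, and were picked here after their values were seen. CXCL8, a neutrophil chemokine, was at 344 CPM in sensitive and 9.74 in resistant WM983A, at 486 and 53.1 in WM983B, at 963 and 381 in WM278 and at 9.80 and 2.87 in WM902B, but at 0.900 and 1.47 in WM1617. Its log2 fold change was -2.00 (edgeR unadjusted p = 0.266) and -2.20 with the line as a block (unadjusted p = 0.0320). CXCL2, of the same chemokine family, was at 1.76 and 41.7 CPM in WM983A, at 2.11 and 8.39 in WM983B and at 3.80 and 15.9 in WM278, but at 0.467 and 0.485 in WM902B and at 0.0711 and 0.0571 in WM1617, with a log2 fold change of 3.02 (edgeR unadjusted p = 0.0526) and of 2.09 with the line as a block (unadjusted p = 0.0238). NFKBIA, the inhibitor of NF-kB, was at 1.05 (edgeR unadjusted p = 0.0562) and 0.89 with the block (unadjusted p = 0.00558). CASP1, the protease that processes IL-1 beta, was at 0.399 CPM in sensitive and 140.0 in resistant WM902B, at 3.90 and 25.5 in WM983B and at 17.1 and 26.5 in WM278. It was lower in the resistant library of WM983A, at 9.16 and 0.377 CPM, and of WM1617, at 1.71 and 0.228 CPM. It did not pass (2.58, edgeR unadjusted p = 0.108), and was at 0.62 with the line as a block (unadjusted p = 0.765).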
